A study of Homo sapiens with 9 samples.

Results

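The 2 doses of okadaic acid used in this study were compared with each other, without the untreated arrays, to see what 60 nM added to 20 nM. The 3 arrays of each dose, 6 of the 9 arrays in the series, were chosen by their titles. Okadaic acid is a marine polyether toxin. RNA came from a culture labelled SH-SY5Y, a human neuroblastoma line, grown in DMEM with fetal bovine serum and exposed for 12 h to 20 nM or 60 nM okadaic acid in medium with 4% serum. All 6 arrays therefore hold RNA from exposed cells, and by their labels they differ in dose alone. One label of the 60 nM arrays, that of the treatment, reads 20 nM, against 60 nM in their title code, their source name and the design text, and 60 nM was used. The replicates are labelled biological, but separate cultures are not stated, so a p-value covers the spread of these arrays alone, which may be technical. Of the 70523 probe sets on the array, those with a single gene symbol gave 22468 named genes, and all of them entered the comparison.

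Okadaic acid blocks the catalytic subunits of the serine/threonine phosphatases PP2A and, at higher concentration, PP1. These enzymes remove phosphate from very many proteins, among them the MAP kinases that switch on immediate early genes and the proteins whose phosphorylation drives entry into mitosis. Immediate early genes are transcribed within minutes of a stimulus without new protein synthesis. DNA replication genes are under the control of E2F factors at the start of S phase, while mitosis genes are expressed later, in G2 phase.

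Levels are log2 of the deposited intensity. A gene's level was taken as above background when it exceeded 5.82, the 95th percentile of 23 background probe sets on these arrays, and 9988 genes had a mean above it at either dose. A difference is the mean at 60 nM minus the mean at 20 nM on the log2 scale, with its standard error (SE) and the Benjamini-Hochberg adjusted p of limma over all named genes. A gene was called higher or lower where this adjusted p was under 0.05. A gene not above background on any array of a dose has only a bound there, and its change is given as "at least" so many fold, with the dim arrays set to the background level.

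The label of the line was checked against marker genes. Of 14 measured markers of noradrenergic neuroblastoma, the type to which SH-SY5Y belongs, 3 were above background at both doses, namely GATA2, GATA3 and TBX2. TH, the first enzyme of catecholamine synthesis (4.55 ± 0.04 at 20 nM and 4.58 ± 0.00 at 60 nM, SD, n = 3), DBH, which makes noradrenaline (4.21 ± 0.06 at 20 nM and 4.22 ± 0.01 at 60 nM), and PHOX2A, a factor that specifies noradrenergic neurons (3.53 ± 0.08 at 20 nM and 3.50 ± 0.03 at 60 nM), were at background. So was MAPT, the gene of tau (4.91 ± 0.02 at 20 nM and 4.89 ± 0.00 at 60 nM). Of 9 measured mesenchymal neuroblastoma markers 8 were above background, and of 8 epithelial markers 4, the keratins KRT7, KRT8, KRT18 and KRT19. None of 5 glial, 5 leukocyte and 4 endothelial markers was. The data thus go against the noradrenergic identity of the labelled line at both doses. The summed log2 level of the noradrenergic markers ran from 67.1 to 68.0 on the 20 nM arrays and from 68.9 to 69.4 on the 60 nM arrays, and that of the mesenchymal markers from 80.2 to 80.8 and from 81.4 to 82.6, without overlap. The noradrenergic sum is made mostly of values at background, since 3 of its 14 markers were above it. Its called members, ISL1 and RET, had means below background at both doses. The epithelial sums overlapped, with 54.8 to 55.5 and 54.9 to 55.2. The part of such differences in the results was not tested.

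The arrays of a dose were alike. Over all genes the mean correlation of an array with its own dose was 0.997 to 0.999. For genes above background, 83.3% of the variance between arrays lay on a first principal component. Along it the doses were apart, with scores of -29.4 to -22.2 at 20 nM and 24.8 to 26.0 at 60 nM. On the second component (11%) replicate 2 at 20 nM stood apart at -17.8, and its median level was the lowest of the 6 arrays (4.36 against 4.45 to 4.51). Array medians were 4.44 ± 0.07 at 20 nM and 4.47 ± 0.03 at 60 nM (exact two-sided permutation p = 0.6), and the poly-A controls 6.78 ± 0.27 and 6.68 ± 0.25 (exact p = 0.7). The spiked hybridisation controls were 9.42 ± 0.23 and 9.70 ± 0.25, a difference of 0.28 that is larger than either SD, while the arrays of the doses overlapped (exact p = 0.2). With 3 arrays against 3 the exact test cannot go below 0.1, so it cannot show these measures to be alike or apart.

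Between the doses, few genes changed by much and many by little, and the large changes were nearly all rises. In RNA from a whole culture, more or fewer cells of a kind and more or less RNA per cell cannot be told apart. Of 22468 named genes, 3979 (17.7%) were called, 1508 higher at 60 nM (6.71%) and 2471 lower (11%). Among the 9988 genes above background the shares were 35.4% called, 13% higher and 22.3% lower. Counts of list members below are to be read beside these shares. The 3 arrays of each dose did not overlap for 31.2% of all genes, 56.6% of those above background and all 3979 called genes. By fitted fold, 534 called genes changed at least 2-fold, of which 376 were higher and 158 lower, and 73 changed at least 4-fold, of which 71 were higher and 2 lower. All 16 that changed at least 8-fold were higher. In contrast, of 2419 called genes that changed less than 1.5-fold, 1754 were lower. Without replicate 2 at 20 nM, the array that stood apart, 3967 genes were called (1761 higher, 2206 lower). The count was more than 1.5 times smaller without replicate 1 (2612) or 3 (2596) at 20 nM or without replicate 3 at 60 nM (2488). The number higher was so without replicate 3 at 20 nM (877) or replicate 1 (923) or 3 (941) at 60 nM, and the number lower without replicate 1 at 20 nM (1565) or 3 at 60 nM (1547). When the arrays were set to equal hybridisation controls, which lowered every difference by 0.28, 2639 genes were called and 19.2% of them were higher, in place of 37.9%. This setting also adds the spread of the controls between arrays to every gene. The median SE was 0.216 in place of 0.0576, so a call lost under it, here or in a list below, does not come from the shift alone.

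**Figure D1:**
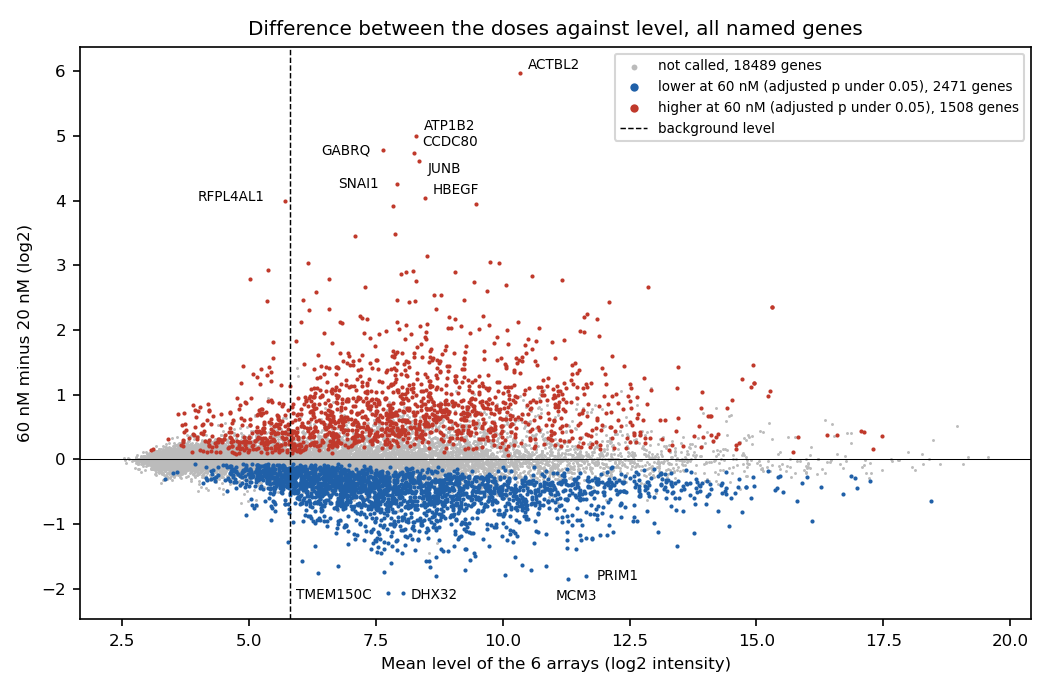
The difference between 60 nM and 20 nM (log2, vertical axis) is plotted against the mean level of the 6 arrays (log2 intensity, horizontal axis) for each of 22468 named genes. Red points are the 1508 genes called higher, blue points the 2471 called lower and the dashed line is the background level of 5.82, and the red points reach 5.97 while the blue ones end at -2.07.

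The largest rises by fitted difference were led by ACTBL2, ATP1B2, GABRQ and CCDC80. ACTBL2, an actin-like gene, had levels of 6.79, 8.14 and 7.12 on the 20 nM arrays and 12.99, 13.17 and 13.80 on the 60 nM arrays. Replicate 2 was the highest of the 20 nM arrays, and all 3 arrays at 60 nM lay above it (log2 difference 5.97, SE 0.42, adjusted p = 0.00162, 62.9-fold). ATP1B2 codes for a beta subunit of the sodium and potassium pump and had levels of 5.88, 5.67 and 5.82 on the 20 nM arrays and 10.83, 10.45 and 11.09 on the 60 nM arrays. Just 1 of the 20 nM arrays was above background, while the 60 nM arrays were far above it (log2 difference 4.999, SE 0.18, adjusted p = 0.000382). GABRQ, the theta subunit of GABA-A receptors, was below background on the 3 arrays at 20 nM and had levels of 9.97, 9.86 and 10.30 at 60 nM, at least 18.7-fold higher (adjusted p = 0.000316). CCDC80, which codes for a protein of the extracellular matrix, went from levels of 5.85, 6.01 and 5.77 to 10.69, 10.41 and 10.76 (log2 difference 4.74, SE 0.12, adjusted p = 0.000237). SNAI1, the transcriptional repressor that shuts down epithelial genes, lay at background at 20 nM (5.82, 5.75 and 5.78) and at 10.05, 9.72 and 10.36 at 60 nM (log2 difference 4.26, SE 0.16, adjusted p = 0.000467).

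HBEGF, a membrane-bound ligand of the EGF receptor that is released by cleavage, had levels of 6.45, 6.56 and 6.32 on the 20 nM arrays and 10.43, 10.37 and 10.67 on the 60 nM arrays. It was above background at both doses and rose 16.5-fold (log2 difference 4.04, SE 0.10, adjusted p = 0.000237). TNFSF9, the ligand of the costimulatory receptor 4-1BB, had levels of 7.53, 7.70 and 7.31 on the 20 nM arrays and 11.64, 11.17 and 11.56 on the 60 nM arrays, a rise of 3.95, SE 0.16. Its receptor gene, TNFRSF9, was below background at 20 nM and at least 1.71-fold higher at 60 nM (adjusted p = 0.00915). TENT5C, a cytoplasmic poly(A) polymerase, rose by 3.91, SE 0.12, and PCDH10, a protocadherin of cell contacts, by 3.49, SE 0.15. PGM2L1, which makes the sugar cofactor glucose bisphosphate, rose by 3.15, SE 0.18, and TIMP3, an inhibitor of matrix metalloproteinases, by 3.05, SE 0.15. RND1, a GTP-binding protein that loosens actin fibres, and DLL4, a ligand of Notch receptors, were below background on the 3 arrays at 20 nM and were at least 8.03-fold and at least 3.64-fold higher. RFPL4AL1 was at least 3.72-fold higher, but it has a close relative in the genome, and its probe set may not tell the copies apart. With JUNB, these were the 15 largest rises by fitted difference among called genes with no overlap between doses and a 60 nM mean above background. GABRQ, RFPL4AL1, RND1 and DLL4 were at background at 20 nM, so their place among the 15 rests on fitted values that were not measured above it. The bounds for RFPL4AL1 and DLL4 are smaller than the folds of CENPE (8.19-fold), PLK2 (7.55-fold), ARC (7.46-fold) and GCH1 (7.28-fold), which were above background at both doses. At 20 nM ATP1B2, CCDC80, JUNB, SNAI1 and TENT5C lay close to the background, which limits how large a fold could be measured.

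The genes that fell most were all measured well above background at 20 nM, and their falls were smaller than the leading rises. DHX32, a gene of the DEAH box helicase family, had levels of 9.08, 9.10 and 9.02 on the 20 nM arrays and 7.13, 6.93 and 6.93 on the 60 nM arrays. The 6 arrays formed 2 separate groups that differed 4.2-fold (log2 difference -2.07, SE 0.063, adjusted p = 0.000287). TMEM150C, which codes for a membrane protein, fell as far (log2 difference -2.06, SE 0.067, adjusted p = 0.000337). MCM3 and MCM6, subunits of the replicative helicase, and PRIM1, the catalytic subunit of primase, were among the 15 and are described with DNA replication. ARHGAP35 (a GTPase-activating protein; -1.80, SE 0.089), NUP210 (a membrane protein of the nuclear pore; -1.78, SE 0.072) and DDX23 (a helicase of the spliceosome; -1.65, SE 0.094) fell too. So did BTBD2 (-1.71, SE 0.098), MMD (-1.75, SE 0.034), STRADB, a pseudokinase partner of LKB1 (-1.63, SE 0.068), and DDB2, which recognises ultraviolet damage in DNA (-1.60, SE 0.10). GPX8, a peroxidase of the endoplasmic reticulum, was below background on the 3 arrays at 60 nM and at least 2.69-fold lower. The remaining 2 of the 15 were microRNA genes.

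**Figure D2:**
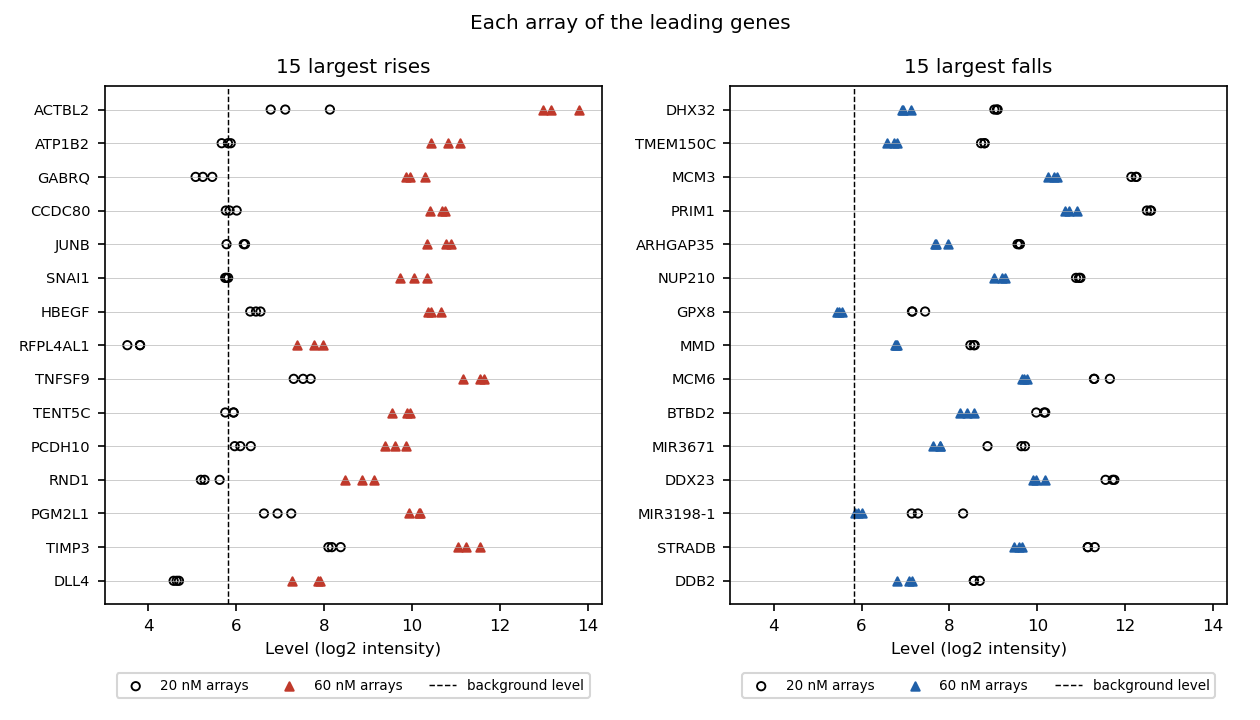
Levels (log2 intensity, horizontal axis) of the 15 genes with the largest rises (left) and the 15 with the largest falls (right) by fitted difference are plotted for each of the 6 arrays. Open circles are 20 nM arrays, filled triangles 60 nM arrays and the dashed line is the background level, and the arrays of the 2 doses are apart for every gene, as the rule that chose the genes required.

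Many immediate early genes of the AP-1, EGR and NR4A families were higher at 60 nM than at 20 nM, and fewer of the KLF and MYC lists. Of 53 measured genes of 4 lists, 27 were called higher (50.9%) and 3 lower (5.66%). The shares were 6.71% and 11% of all named genes, and 13% and 22.3% of those above background. The median difference of the 53 was 0.27, against a median of 0.00 over all named genes. With the arrays set to equal hybridisation controls 6 AP-1 genes, 6 of the EGR and NR4A list, 2 KLF genes and 1 of the MYC network were higher. JUNB, a subunit of AP-1, had levels of 6.17, 6.20 and 5.78 on the 20 nM arrays and 10.77, 10.34 and 10.90 on the 60 nM arrays. It was at or near background at 20 nM and 24.5-fold higher at 60 nM (log2 difference 4.61, SE 0.19, adjusted p = 0.00058). Among 11 AP-1 genes 9 were higher and 1 lower. FOS, the partner of JUN proteins in AP-1, was below background on the 3 arrays at 20 nM and at least 2.04-fold higher at 60 nM, where its levels were 6.97, 6.71 and 6.86 (adjusted p = 0.00114). ATF3, which binds DNA with JUN proteins and responds to stress, rose by 1.86, SE 0.12, and JUN by 1.03, SE 0.10. The AP-1 gene that was lower, BATF3 (-0.12, adjusted p = 0.0372), is named here after its values were seen. With any 1 array left out, and under quantile normalization, equal medians or trended variance, no AP-1 gene was called lower.

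Of 18 EGR, NR4A and other early genes, 12 were higher and none lower. ARC, a synaptic capsid-like protein and classical early gene of neurons, had levels of 6.48, 6.87 and 6.57 on the 20 nM arrays and 9.73, 9.31 and 9.57 on the 60 nM arrays. All 60 nM arrays lay above the 20 nM arrays (log2 difference 2.90, SE 0.15, adjusted p = 0.000859). EGR1, a zinc finger factor that is a standard marker of MAP kinase signalling, had levels of 7.99, 7.80 and 7.76 on the 20 nM arrays and 9.41, 9.09 and 9.74 on the 60 nM arrays and rose 2.96-fold (log2 difference 1.56, SE 0.18, adjusted p = 0.00556). The nuclear receptor gene NR4A2 rose by 1.75, SE 0.081 and IER3, an early gene linked to survival, by 2.08, SE 0.20. NR4A3 was called higher (adjusted p = 0.000298) but below background at both doses. Of 13 KLF factors, 4 were higher, among them KLF5 (1.95, SE 0.20) and KLF4 (0.89, SE 0.092), and KLF11 was lower (-0.47, SE 0.032), while KLF10 rose by 0.29, SE 0.045, a call lost without replicate 1 or 3 at 20 nM or replicate 3 at 60 nM. Leaving out single arrays gave 2 to 4 of the 13 higher. In the MYC network (11 genes, 2 higher, 1 lower) MXD1, a repressor that competes with MYC for its partner MAX, had levels of 8.25, 8.52 and 8.39 on the 20 nM arrays and 11.09, 10.77 and 11.13 on the 60 nM arrays, a rise of 2.61, SE 0.12. MYC itself differed by 0.41, SE 0.079 (adjusted p = 0.025), a call lost without any 1 of the 20 nM arrays or replicate 1 or 3 at 60 nM. MLX was lower (-0.82, SE 0.16, lost without replicate 2 or 3 at 20 nM or replicate 2 or 3 at 60 nM), and MAX was at 0.13 (adjusted p = 0.177) and called without replicate 2 at 60 nM. The MYC network had 1 to 3 members higher with 1 array left out.

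The promoter of EGR1 is shown because its early induction is tied to CArG boxes, the sites of serum response factor. The letters come from RefSeq on the assembly GRCh38.p14, run from 250 bases before to 50 after the annotated start, and are written 5′ to 3′ on the strand of the gene, with the 2 CArG boxes that were found in capitals. The region is chr5:138465229-138465528 (plus strand).
EGR1: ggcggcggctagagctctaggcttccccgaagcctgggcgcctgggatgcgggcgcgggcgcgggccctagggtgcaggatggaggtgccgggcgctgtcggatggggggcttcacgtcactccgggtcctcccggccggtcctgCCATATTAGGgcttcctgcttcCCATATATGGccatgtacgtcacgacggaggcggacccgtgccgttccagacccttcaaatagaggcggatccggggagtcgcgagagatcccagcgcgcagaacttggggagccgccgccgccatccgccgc
A CArG box on either strand was found in 1.24% of the 14670 promoters of named genes that could be matched by gene number. It was in 2 of 43 promoters of the immediate early lists. The AP-1 motif TGANTCA was in 3.85% of the promoters of genes above background that rose and 3.15% of those that fell, against 3.69% of all above background, and the CRE motif TGACGTCA in 4.96%, 3.09% and 3.73%. A match describes the letters and is no evidence of binding.

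Of 18 measured feedback inhibitors of MAP kinase signalling 11 were called higher (61.1%) and none lower (median 0.32). Of all genes above background, 13% were higher and 22.3% lower. With the arrays set to equal hybridisation controls 3 DUSP genes and 2 of the Sprouty and SPRED list were higher. ERRFI1, an inhibitor of the EGF receptor, had levels of 10.85, 10.93 and 10.83 on the 20 nM arrays and 13.43, 13.18 and 13.31 on the 60 nM arrays. The 60 nM arrays were all higher than the 20 nM arrays, 5.4-fold in the mean (log2 difference 2.43, SE 0.071, adjusted p = 0.000283). Of 10 DUSP genes, whose products remove phosphate from MAP kinases, 7 were higher: DUSP10 rose by 1.42, SE 0.14, DUSP5 by 1.53, SE 0.17 and DUSP1 by 0.92, SE 0.094, and DUSP4, below background at 20 nM, was at least 1.15-fold higher. Of 8 genes of the Sprouty and SPRED families and ERRFI1, 4 were higher, with SPRY2 (0.94, SE 0.078) and SPRY4 (0.85, SE 0.047) beside ERRFI1. SPRED1 differed by 0.56, SE 0.11, and its call was lost without replicate 1 or 3 at 20 nM or any 1 of the 60 nM arrays. Without any 1 of the 20 nM arrays or replicate 1 at 60 nM, 4 in place of 7 DUSP genes were higher. Among 15 EGF receptor ligands, receptors and sheddases, 2 were higher, HBEGF and NRG1 (at least 1.1-fold). The sheddase ADAM10 was at 8.47, 9.18 and 8.94 against 9.58, 9.55 and 9.60 (adjusted p = 0.0615, called without replicate 1 or 2 at 20 nM) and ERBB4 was below background at both doses.

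PPP2CA, PPP2CB, PPP1CA and PPP1CC, genes of catalytic subunits of PP2A and PP1, changed little. PPP2CA, the main catalytic subunit of PP2A, had levels of 10.90, 10.95 and 10.84 on the 20 nM arrays and 10.90, 10.94 and 11.03 on the 60 nM arrays, which overlapped (difference 0.06, SE 0.046, adjusted p = 0.514). PPP2CB, the other one, differed by 0.16, SE 0.03 (adjusted p = 0.0233), a call lost without any 1 of the 20 nM arrays or replicate 1 at 60 nM. PPP1CA (-0.22, SE 0.076) and PPP1CC (0.00, SE 0.027) of PP1 were not called. Of 27 PP1 subunit genes 4 were higher and 7 lower, and of 38 genes of PP2A and its relatives 2 were higher and 7 lower. PPP1R2, inhibitor 2 of PP1, rose by 1.02, SE 0.063 and PPP1R15A (GADD34), which directs PP1 to eIF2 alpha, was at least 1.8-fold higher from below background. PPP1R7 (SDS22; -0.89, SE 0.036) and PPP1R10 (PNUTS, a nuclear PP1 subunit; -0.64, SE 0.069) fell. ANP32A, an inhibitor of PP2A (-0.41, SE 0.061), was lower, a call lost without replicate 2 or 3 at 60 nM. IGBP1, which holds free catalytic subunits (-0.30, SE 0.045), was lower too, a call lost without replicate 3 at 60 nM. PPP4C, the catalytic subunit of PP4 (-0.62, SE 0.10, lost without any 1 of the 20 nM arrays or replicate 1 at 60 nM), and PPP6R2 (-0.21, SE 0.037, lost without any 1 of the 20 nM arrays or replicate 3 at 60 nM) were likewise lower. Leaving out 1 array gave 4 to 6 PP1 genes lower, and 0 to 6 higher and 1 to 6 lower of the PP2A list. The PP1 list, with 14.8% higher and 25.9% lower, was near the shares of all genes above background, 13% higher and 22.3% lower. Of the PP2A list 18.4% were lower, near that share, and 5.26% higher, a smaller share than 13%. The difference from these shares was not tested.

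DNA replication genes were lower at 60 nM across most of the machinery. Of 60 measured genes of 5 lists, 31 were called lower (51.7%) and 4 higher (6.67%), with a median difference of -0.40. Of all genes above background, 22.3% were lower and 13% higher. PRIM1 had levels of 12.59, 12.57 and 12.49 on the 20 nM arrays and 10.91, 10.62 and 10.72 on the 60 nM arrays. All 60 nM arrays were lower, and the mean fell 3.48-fold (log2 difference -1.80, SE 0.081, adjusted p = 0.000647). MCM3 had levels of 12.26, 12.24 and 12.14 on the 20 nM arrays and 10.45, 10.24 and 10.39 on the 60 nM arrays (log2 difference -1.85, SE 0.066, adjusted p = 0.000382), and MCM6 of 11.30, 11.65 and 11.29 on the 20 nM arrays and 9.76, 9.64 and 9.69 on the 60 nM arrays (log2 difference -1.71, SE 0.11, adjusted p = 0.00136). Of 12 genes of the MCM helicase and the GINS complex that opens DNA with it, 9 were lower and none higher (median -0.69), with MCM5 (-1.41, SE 0.052) and CDC45, the third part of the active helicase (-1.19, SE 0.065), among them.

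Of 11 genes of primase and the replicative polymerases 7 were lower and none higher (median -0.50). POLA2, the accessory subunit of polymerase alpha, which starts each strand with primase, had levels of 11.08, 10.97 and 10.93 on the 20 nM arrays and 9.63, 9.34 and 9.50 on the 60 nM arrays, a fall in the mean of 2.84-fold (adjusted p = 0.000959). POLD3 (-1.34, SE 0.094) and POLD2 (-0.50, SE 0.046) belong to polymerase delta, which copies the lagging strand. Of 15 genes of the sliding clamp, its loader and the processing of Okazaki fragments 9 were lower and none higher (median -0.40), including the loader subunits RFC4 (-1.13, SE 0.054) and RFC2 (-0.73, SE 0.065), the flap nuclease FEN1 (-0.62, SE 0.035) and the ligase LIG1 (-0.39, SE 0.04). The counts of these 3 lists were the same without replicate 2 at 20 nM.

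Origin licensing was mixed, with 2 of 13 genes higher and 2 lower. DBF4, the activator of the kinase CDC7, was higher (0.77, SE 0.11), as was ORC4 (0.63, SE 0.15), and the licensing factors CDT1 (-0.56, SE 0.088) and CDC6 (-0.22, SE 0.044) were lower. The call was lost for ORC4 without replicate 1 or 3 at 20 nM or any 1 of the 60 nM arrays, for CDT1 without replicate 1 at 20 nM or replicate 1 or 3 at 60 nM and for CDC6 without replicate 1 or 2 at 20 nM or any 1 of the 60 nM arrays. Between 0 and 2 of the 13 were lower with 1 array left out. Nucleotide synthesis was mixed as well, with 4 of 9 lower, including CAD, which starts pyrimidine synthesis (-1.45, SE 0.09), DCTPP1, which removes dCTP (-1.03, SE 0.066), and TYMS, which makes thymidylate (-0.68, SE 0.047), and 2 higher, including the ribonucleotide reductase subunit RRM2 (0.63, SE 0.052), and 1 was higher without any 1 of the 60 nM arrays. With the arrays set to equal hybridisation controls none of the 13 and none of the 9 was higher.

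Of 24 genes of G1 phase 9 were lower (37.5%) and 3 higher (12.5%), beside 22.3% and 13% of all genes above background. E2F1, a transcription factor for S phase genes, had levels of 10.25, 10.33 and 10.12 on the 20 nM arrays and 9.06, 8.96 and 8.998 on the 60 nM arrays. All 60 nM arrays were lower (log2 difference -1.23, SE 0.064, adjusted p = 0.000852). The kinase CDK4 fell by 0.82 (SE 0.06), whereas CCNE2, one of the cyclins E, rose (1.33, SE 0.14), as did CDKN1A, the inhibitor p21 (0.71, SE 0.057). When any 1 array was left out 4 to 7 of the 24 were lower, the fewest without replicate 3 at 60 nM.

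Mitosis genes moved the other way. Of 50 measured genes of 2 lists, 31 were called higher (62%) and 1 lower (2%), with a median difference of 0.56. Of all genes above background, 13% were higher and 22.3% lower. CENPE, the kinesin that ties chromosomes to spindle fibres, had levels of 8.09, 8.87 and 8.25 on the 20 nM arrays and 11.35, 11.49 and 11.47 on the 60 nM arrays. Replicate 2 was the highest of the 20 nM arrays, and the 60 nM arrays were all higher, 8.19-fold in the mean (log2 difference 3.03, SE 0.22, adjusted p = 0.00165). PLK1, the kinase that drives several steps of mitosis, had levels of 14.82, 14.71 and 14.66 on the 20 nM arrays and 15.73, 15.66 and 15.75 on the 60 nM arrays (log2 difference 0.98, SE 0.049, adjusted p = 0.000798). Of 25 kinesin and spindle genes 18 were higher and none lower (median 0.80), including KIF20A (0.98, SE 0.052), KIF20B (1.96, SE 0.20) and KIF2C (0.68, SE 0.056). CENPF, a centromere protein, rose by 2.21, SE 0.29 and is named here after its values were seen, for the promoter shown with it. Of 25 mitotic cyclins, kinases and checkpoint genes 13 were higher and 1 lower (median 0.39). AURKA, a kinase of the spindle pole (0.71, SE 0.033), PTTG1, or securin (0.77, SE 0.05), and NEK2, a kinase that splits the centrosomes (1.68, SE 0.11), were among those higher. The member that was lower, PKMYT1, which inhibits CDK1 (-0.57, SE 0.078), is named after its values were seen. Without replicate 2 at 20 nM, 20 of 25 and 11 of 25 were higher. Without replicate 3 at 20 nM or any 1 of the 60 nM arrays, 9 of the 25 spindle genes were higher and none lower, and without replicate 1 or 3 at 60 nM, 7 of the 25 mitotic kinase and checkpoint genes were higher. With the arrays set to equal hybridisation controls, 12 of 25 spindle genes were higher and none lower, but 4 mitotic kinase and checkpoint genes were higher and 2 lower.

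**Figure D3:**
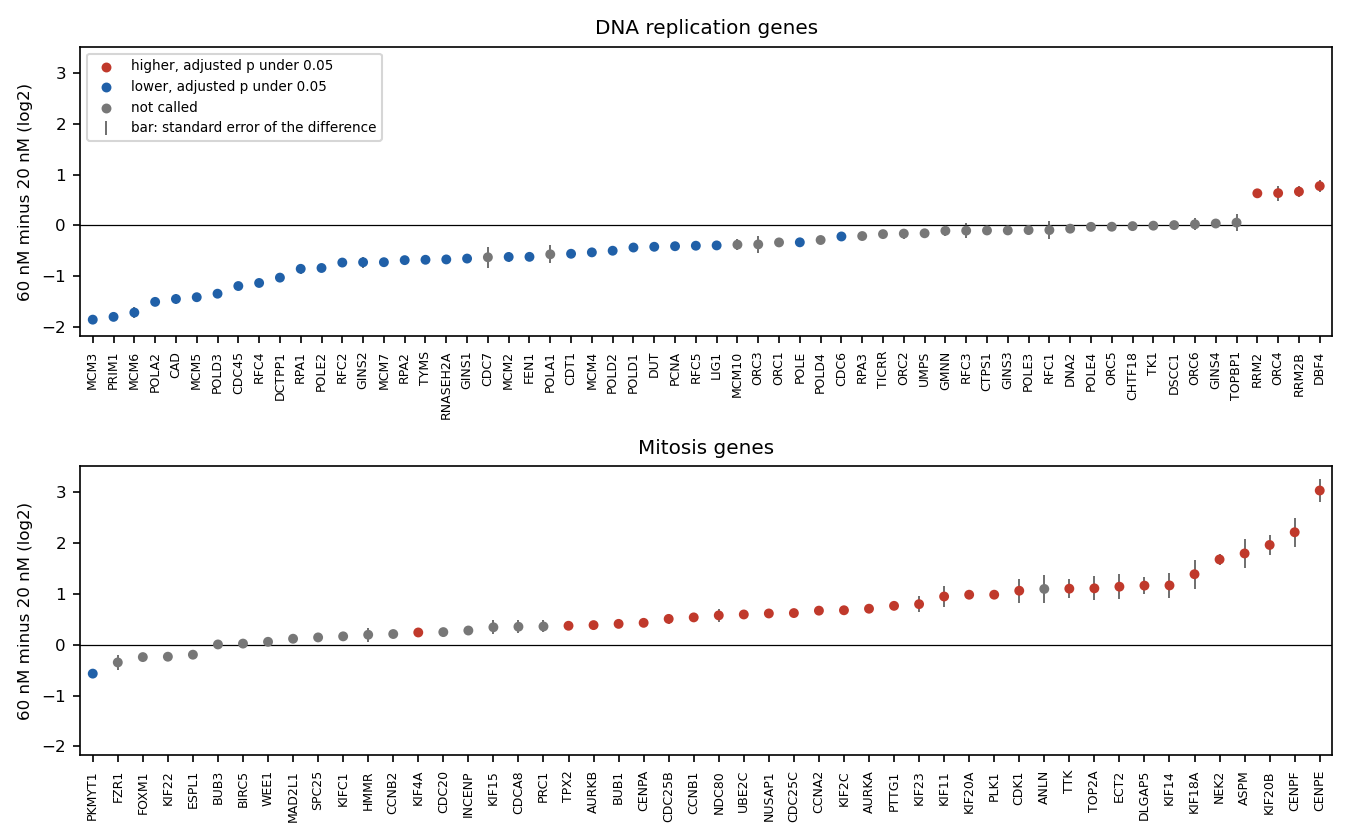
The difference between 60 nM and 20 nM (log2, vertical axis) is plotted with its standard error for 60 DNA replication genes (top) and 50 mitosis genes (bottom), each set ordered by difference. Red points were called higher, blue points lower and grey points were not called. Blue points fill the left of the upper panel from MCM3 at -1.85, and red points the right of the lower panel up to CENPE at 3.03.

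The promoters of both gene groups were searched for the motifs that are known for them. For DNA replication, 3 promoters of called genes are shown with matches to the E2F motif in capitals, searched on both strands as TTTGGCGC, TTTCCCGC, TTTCGCGC and TTTGCCGC, which can overlap. They come from RefSeq (GRCh38.p14), in the window used for EGR1, and lie at chr6:52284693-52284992 (minus strand), chr11:65261712-65262011 (plus strand) and chr2:135876394-135876693 (minus strand).
MCM3: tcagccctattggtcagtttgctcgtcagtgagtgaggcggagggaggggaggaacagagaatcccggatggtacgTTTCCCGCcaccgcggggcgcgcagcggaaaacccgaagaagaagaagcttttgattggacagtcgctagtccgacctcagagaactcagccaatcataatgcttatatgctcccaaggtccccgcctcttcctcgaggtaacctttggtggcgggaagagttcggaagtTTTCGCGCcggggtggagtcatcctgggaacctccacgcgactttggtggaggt
POLA2: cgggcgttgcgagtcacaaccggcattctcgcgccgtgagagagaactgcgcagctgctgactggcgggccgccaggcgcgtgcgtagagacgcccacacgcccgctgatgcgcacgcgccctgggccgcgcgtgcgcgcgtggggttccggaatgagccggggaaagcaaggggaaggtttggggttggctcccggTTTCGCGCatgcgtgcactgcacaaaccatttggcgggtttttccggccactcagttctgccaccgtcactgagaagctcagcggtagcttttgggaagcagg
MCM6: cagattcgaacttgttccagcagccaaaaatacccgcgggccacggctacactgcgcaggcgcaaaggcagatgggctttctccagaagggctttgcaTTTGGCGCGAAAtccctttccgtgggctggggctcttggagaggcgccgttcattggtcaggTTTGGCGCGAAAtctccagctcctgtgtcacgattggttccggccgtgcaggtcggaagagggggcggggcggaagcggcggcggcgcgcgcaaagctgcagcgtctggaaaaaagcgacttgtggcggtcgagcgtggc
An E2F match was in 4.27% of all 14670 promoters and in 19 of 50 promoters of the replication lists (38%). It was in 14 of 27 promoters of members that were lower and in 5 of 23 of the other members. Over all genes above background, 7.64% of promoters of lower genes and 4.15% of promoters of higher genes held one, against 6.01% of all.

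For mitosis, 3 promoters are shown with the CHR motif TTTGAA, the cell cycle homology region, in capitals. They lie at chr16:23678639-23678938 (plus strand), chr10:89701340-89701639 (plus strand) and chr1:214602945-214603244 (plus strand).
PLK1: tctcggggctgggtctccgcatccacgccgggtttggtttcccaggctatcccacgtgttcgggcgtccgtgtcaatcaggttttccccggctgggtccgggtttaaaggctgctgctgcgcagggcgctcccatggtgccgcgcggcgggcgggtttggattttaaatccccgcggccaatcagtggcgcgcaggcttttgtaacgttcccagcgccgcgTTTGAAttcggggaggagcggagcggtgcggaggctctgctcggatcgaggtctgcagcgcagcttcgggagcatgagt
KIF20B: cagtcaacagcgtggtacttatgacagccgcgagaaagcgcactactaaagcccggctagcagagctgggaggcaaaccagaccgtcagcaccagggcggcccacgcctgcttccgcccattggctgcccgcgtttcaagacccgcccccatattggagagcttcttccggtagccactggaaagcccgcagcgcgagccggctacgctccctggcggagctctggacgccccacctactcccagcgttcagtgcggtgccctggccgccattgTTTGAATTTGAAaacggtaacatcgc
CENPF: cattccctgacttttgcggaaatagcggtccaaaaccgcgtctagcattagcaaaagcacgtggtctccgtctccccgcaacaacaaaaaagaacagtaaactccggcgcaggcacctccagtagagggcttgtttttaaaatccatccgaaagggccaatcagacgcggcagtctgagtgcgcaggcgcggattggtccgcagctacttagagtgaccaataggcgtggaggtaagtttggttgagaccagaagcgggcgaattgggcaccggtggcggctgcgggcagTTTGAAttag
The CHR letters were found on either strand in 12.4% of all promoters and in 29 of 41 promoters of the mitosis lists (70.7%). It was in 16 of 27 promoters of members that were higher and in 13 of 14 of the other members. The CCAAT box was in 33 of the 41 (80.5%), against 36.3% of all promoters.

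Stress gene lists held members that rose and fell. The count of each such list stands beside 13% higher and 22.3% lower of all genes above background. Of 30 hypoxia and glycolysis genes 11 were higher and 3 lower, and 1 was lower without replicate 2 at 60 nM. BNIP3, which targets mitochondria for removal, had levels of 7.97, 7.96 and 7.95 on the 20 nM arrays and 8.94, 8.88 and 8.90 on the 60 nM arrays (log2 difference 0.94, SE 0.022, adjusted p = 0.000237). The glucose transporter gene SLC2A3 rose by 1.49, SE 0.057 and VEGFA, the vascular growth factor, by 1.04, SE 0.046. EGLN3, an oxygen sensor, was at least 2.56-fold higher from below background. GAPDH, an enzyme of glycolysis, was not called (-0.09, SE 0.031, adjusted p = 0.152). Of 22 p53 targets 10 were higher and 2 lower. GADD45B, which activates a stress kinase cascade, had levels of 9.71, 9.87 and 9.75 on the 20 nM arrays and 12.46, 12.44 and 12.73 on the 60 nM arrays, a rise of 6.8-fold (adjusted p = 0.000363). PLK2, a kinase of centrosomes and synapses, had levels of 6.80, 6.94 and 6.61 on the 20 nM arrays and 9.76, 9.51 and 9.83 on the 60 nM arrays and rose 7.55-fold (adjusted p = 0.000553). POLH, the polymerase that copies past ultraviolet damage, rose by 1.57, SE 0.094, while DDB2, also a repair gene, fell.

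Of 20 heat shock genes 6 were higher and 2 lower, with DNAJB1 (1.65, SE 0.092) and BAG3 (0.82, SE 0.094), co-chaperones of HSP70, higher and HSPA1A, an HSP70 (-0.51, SE 0.044), and HSPB1, or HSP27 (-0.45, SE 0.06), lower. Of 18 targets of the antioxidant factor NRF2 7 were higher and 1 lower. GCLC, which makes glutathione, rose by 0.82, SE 0.079, TXNRD1, a thioredoxin reductase, by 0.42, SE 0.04 and FTL, a ferritin chain, by 0.45, SE 0.058, and HMOX1, heme oxygenase, was at least 1.19-fold higher. Without replicate 3 at 20 nM or any 1 of the 60 nM arrays 2 heat shock genes were higher and 2 lower. With the arrays set to equal hybridisation controls both splits turned, to 2 higher and 3 lower heat shock genes and 1 higher and 2 lower NRF2 targets. Of 21 genes of the endoplasmic reticulum 6 were higher and none lower, led by HERPUD1, a gene of protein degradation there (1.16, SE 0.075), and joined by DNAJC3 (1.09, SE 0.13) and DNAJB9 (0.41, SE 0.038). The stress sensor ERN1 was called higher (1.09, SE 0.13), but 1 of its 3 arrays at 20 nM was above background, so that this difference depends on values near it. Of 23 ATF4 targets 8 were higher and 5 lower, and 5 were higher without replicate 1 at 20 nM or replicate 1 or 3 at 60 nM. SLC7A5, an amino acid transporter (0.92, SE 0.086), was higher, ALDH1L2 was at least 1.35-fold lower and VLDLR was called lower below background. Of 10 metallothionein genes MT1X was higher (0.55, SE 0.068) and MT1F lower (-0.96, SE 0.10), and MT2A (-0.28, SE 0.075) and MT1H (-0.11, SE 0.042) were not called. These genes are near-identical copies, so that their probe sets may share signal.

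Cell death genes did not share a direction. Of 17 BCL2 family genes 3 were higher and 4 lower, and of 14 caspases, their adaptors and inhibitors 2 were higher and 3 lower, against 13% and 22.3% of genes above background. BCL2L11, or BIM, had levels of 8.75, 8.87 and 8.70 on the 20 nM arrays and 10.01, 9.83 and 9.86 on the 60 nM arrays, and PMAIP1, or NOXA, of 11.46, 11.86 and 11.68 on the 20 nM arrays and 13.18, 13.03 and 13.11 on the 60 nM arrays. Both code for proteins that promote apoptosis and both rose, by 1.13, SE 0.069 and 1.44, SE 0.11. Of the 17 BCL2 family genes 2 to 5 were lower when 1 array was left out. BCL2L1, or BCL-X, was lower (-0.20, SE 0.026), as was BCL2L13 (-0.26, SE 0.035). CASP2 (-0.73, SE 0.077) and the adaptor FADD (-0.69, SE 0.085) fell, while APAF1 (0.69, SE 0.093) and its activator cytochrome c, CYCS (0.61, SE 0.085), rose. Of 22 TNF ligand and receptor genes 4 were higher (18.2%) and 1, TNFRSF1A, was lower (-1.10, SE 0.082). Of all genes above background 13% were higher, and of all named genes 6.71%. TNFRSF21 differed by 0.25, SE 0.052, a call lost without any 1 of the 20 nM arrays or replicate 1 or 3 at 60 nM. The number higher was 2 to 6 with 1 array left out. Of 24 NF-kB genes 8 were above background, and 5 of the 24 were higher (20.8%) and 1 lower (4.17%). The shares were 6.71% and 11% of all named genes, and 13% and 22.3% of those above background. NFKBIZ (1.46, SE 0.087) and TNFAIP3 (0.92, SE 0.078), both inducible regulators of NF-kB, rose, NFKB2 was at least 1.14-fold higher, and PTGS2 was called higher below background.

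Cytoskeleton genes held large differences in few members. ACTB, or beta-actin, had levels of 14.01, 14.03 and 14.01 on the 20 nM arrays and 13.98, 13.95 and 13.996 on the 60 nM arrays, which differed by -0.04, SE 0.02 (adjusted p = 0.31), beside the rise of its relative ACTBL2. Of 25 SRF and YAP targets 4 were higher (16%) and 2 lower (8%), beside 13% and 22.3% of all genes above background. The share higher was thus near that of all such genes. The 2 that were lower were the tropomyosins TPM4 (-0.28, SE 0.031) and TPM1 (-0.47, SE 0.07, lost without replicate 3 at 60 nM). THBS1, a matrix protein, was at least 1.18-fold higher, a call lost without replicate 1 or 3 at 20 nM or replicate 1 at 60 nM. Between 1 and 5 of the 25 were higher when 1 array was left out. Under equal hybridisation controls 1 was higher and 3 lower. Of 29 tubulin and neuronal cytoskeleton genes 9 were higher and 1 lower. NEFL, the light neurofilament chain, had levels of 8.46, 8.38 and 8.43 on the 20 nM arrays and 10.16, 10.07 and 10.04 on the 60 nM arrays (log2 difference 1.66, SE 0.041, adjusted p = 0.000237). TUBB2A (1.99, SE 0.10) and TUBA1A (0.70, SE 0.049) rose, while TUBB, the most widely expressed beta-tubulin gene, fell (-0.44, SE 0.023). Tubulin genes are alike in sequence, and their probe sets may share signal.

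Neuronal genes were mostly at background. Their counts stand beside 6.71% higher and 11% lower of all named genes, and 13% and 22.3% of those above background. Of 23 synaptic vesicle genes 5 were above background, and VAMP1 (1.08, SE 0.047) rose while VAMP2 (-0.65, SE 0.058) and SV2A (-0.36, SE 0.036) fell and SYN2 was at least 1.17-fold higher. Of 22 noradrenergic genes 7 were above background, and 4 were called higher (18.2%) and none lower. GCH1, the first enzyme of tetrahydrobiopterin synthesis, which supplies the cofactor of TH, had levels of 6.55, 6.65 and 6.52 on the 20 nM arrays and 9.48, 9.35 and 9.48 on the 60 nM arrays. The arrays of a dose lay close together, and the dose means differed 7.28-fold (log2 difference 2.86, SE 0.053, adjusted p = 0.000233). RET and SOX11 were called higher below background (SOX11 not without replicate 1 or 3 at 20 nM), and ISL1, whose call was lost when any 1 of the 6 arrays was left out, was above background on 1 of the 60 nM arrays alone. With 1 array left out 2 to 5 of the 22 were higher. Of 18 GABA and nicotinic receptor subunits, 2 were above background at either dose, GABRQ and CHRNA5 (1.13, SE 0.12). Both were higher, 11.1% of the 18, and none was lower. CHRNA3 and CHRNB1 were among those below background. Of 7 genes of the sodium and potassium pump, the 3 beta subunits were higher: ATP1B2, ATP1B1 (0.90, SE 0.044) and ATP1B3 (0.45, SE 0.064), while FXYD5 was at -0.14 (adjusted p = 0.201). No alpha subunit gene was among the 7.

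Counts of identity markers stand beside 6.71% higher and 11% lower of all named genes, and 13% and 22.3% of those above background. Of 17 mesenchymal type markers 6 were higher (35.3%) and 2 lower (11.8%), and 14 were above background. NOTCH1 (1.51, SE 0.086) and the hyaluronan receptor CD44 (0.84, SE 0.06) followed SNAI1, and PRRX1 was called lower below background. Of 16 epithelial markers 7 were above background and 2 were lower (12.5%), near the 11% of all named genes. These were the splicing factor ESRP2 (-0.62, SE 0.071) and KRT18 (-0.25, SE 0.049, lost without replicate 1 or 3 at 20 nM or replicate 1 or 2 at 60 nM). TJP1 (0.40, SE 0.12, called without replicate 2 at 20 nM) and OCLN (-0.36, SE 0.13) were not called. VIM, or vimentin, was not called (0.12, SE 0.05, adjusted p = 0.22). Of 9 leukocyte markers the lysosomal protein CD68 was higher (1.51, SE 0.078) and the other 8, ITGAM, CD74 and CSF1R among them, were below background. Of 7 glial markers none was called and CNP was the one above background (-0.30, SE 0.099, called without replicate 1 at 60 nM), and of 8 endothelial markers KDR was called higher below background.

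Of 28 genes of tau and amyloid biology 9 were lower and 3 higher, beside 22.3% lower and 13% higher among all genes above background, and a difference from those shares was not tested. BACE1, the beta-secretase, had levels of 7.86, 7.93 and 7.82 on the 20 nM arrays and 7.18, 7.21 and 7.24 on the 60 nM arrays (log2 difference -0.66, SE 0.034, adjusted p = 0.000852), and NCSTN, or nicastrin of the gamma-secretase, fell too (-0.72, SE 0.041). SORL1, a sorting receptor of the amyloid precursor, was at least 1.21-fold lower, and the tau kinase MARK1 rose by 0.20, SE 0.028. With 1 array left out 1 to 3 were higher and 6 to 9 lower.

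Of the oxidative phosphorylation, lipid synthesis, proteasome and ribosomal protein genes that were called, all but 1 were lower. Of 32 oxidative phosphorylation genes 12 were lower (37.5%) and none higher (median -0.25), beside 22.3% and 13% of all genes above background. NDUFS1, a core subunit of complex I, had levels of 9.29, 9.35 and 9.30 on the 20 nM arrays and 8.78, 8.65 and 8.70 on the 60 nM arrays (log2 difference -0.61, SE 0.042, adjusted p = 0.00154). NDUFB5 of complex I (-0.65, SE 0.058), SDHC of complex II (-0.60, SE 0.073) and ATP5MC1 of ATP synthase (-0.42, SE 0.034) fell as well. Without replicate 2 or 3 at 60 nM 6 of the 32 were lower, and without replicate 1 at 20 nM 8. Of 21 genes of cholesterol and fatty acid synthesis 11 were lower and 1 higher (median -0.18), and none was higher with any 1 array left out. Those lower include FDPS (-0.67, SE 0.052) and DHCR7 (-0.47, SE 0.059) of the cholesterol route and SCD (-0.60, SE 0.062) and ACACA (-0.67, SE 0.078) of fatty acid synthesis. Of 27 proteasome genes 7 were lower and none higher (median -0.15), with PSMB4 (-0.64, SE 0.066) and PSMC2 (-0.42, SE 0.057) the clearest, and 2 to 5 were lower with 1 array left out (2 without replicate 1 or 2 at 20 nM). PSMD11 (-0.32, SE 0.058) lost its call without replicate 1 or 2 at 20 nM or replicate 2 or 3 at 60 nM and PSMB1 (-0.25, SE 0.049) without any 1 of the 20 nM arrays or replicate 1 at 60 nM. Of 20 ribosomal protein genes 6 were lower and none higher (median -0.16), among them RPS16 (-0.43, SE 0.056), RPS18 (-0.45, SE 0.059) and RPL19 (-0.26, SE 0.034), and RPL10A (-0.52, SE 0.10) lost its call without any 1 of the 20 nM arrays or replicate 1 or 3 at 60 nM. With 1 array left out 3 to 4 were lower. The shares of proteasome and ribosomal protein genes lower were near the 22.3% of all genes above background. Of 20 ribosome biogenesis genes 3 were higher and 2 lower, and 0 to 2 were higher and 0 to 1 lower with 1 array left out. The call was lost for NAT10 (-0.43, SE 0.075) without replicate 1 or 2 at 20 nM or any 1 of the 60 nM arrays, for RRN3 (0.33, SE 0.058) without replicate 1 or 3 at 20 nM or replicate 1 or 3 at 60 nM, for NPM1 (0.19, SE 0.04) without replicate 1 or 3 at 20 nM or any 1 of the 60 nM arrays and for RRP9 (0.26, SE 0.056) without any 1 of the 20 nM arrays or replicate 1 or 3 at 60 nM.

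Genes of RNA metabolism included some of the clearest differences. HEXIM1, the inhibitor of the transcription elongation kinase P-TEFb, had levels of 10.50, 10.50 and 10.50 on the 20 nM arrays and 12.63, 12.64 and 12.81 on the 60 nM arrays. The 3 arrays at 20 nM hold 1 repeated value, which makes its SE too small, and the means differed 4.58-fold (log2 difference 2.20, SE 0.053, adjusted p = 0.000237). Of 12 genes around P-TEFb 4 were higher and 1 lower, with ELL2, an elongation factor, at 7.80, 8.21 and 8.03 on the 20 nM arrays and 10.52, 10.40 and 10.51 on the 60 nM arrays (log2 difference 2.46, SE 0.11, adjusted p = 0.000674) and the scaffolds AFF1 (0.38, SE 0.053) and AFF4 (0.98, SE 0.13) higher as well. CIRBP, a cold-inducible RNA-binding protein, fell from levels of 10.13, 10.16 and 10.12 to 8.62, 8.50 and 8.61 (log2 difference -1.56, SE 0.038, adjusted p = 0.000237), and its relative RBM3 was at -0.14 (adjusted p = 0.145). Of 17 SR splicing factors and CLK kinases 2 were higher (11.8%) and 1 lower (5.88%), beside 13% and 22.3% of all genes above background. The kinase CLK2 fell by 0.85 (SE 0.084), SRSF8 rose (0.78, SE 0.062) and SRPK2 was not called (0.21, SE 0.057) but was without replicate 2 at 20 nM. CLK1 differed by 0.40, SE 0.085, a call lost without replicate 1 or 3 at 20 nM or any 1 of the 60 nM arrays. Without replicate 2 at 20 nM 8 of the 17 were higher. Of 18 clock genes 5 were higher, among them RORA (0.57, SE 0.036) and CRY1 (0.79, SE 0.09), with PER1 called below background, and 2 lower, among them CIART (at least 1.24-fold). Under equal hybridisation controls 1 was higher and 2 lower.

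**Figure D4:**
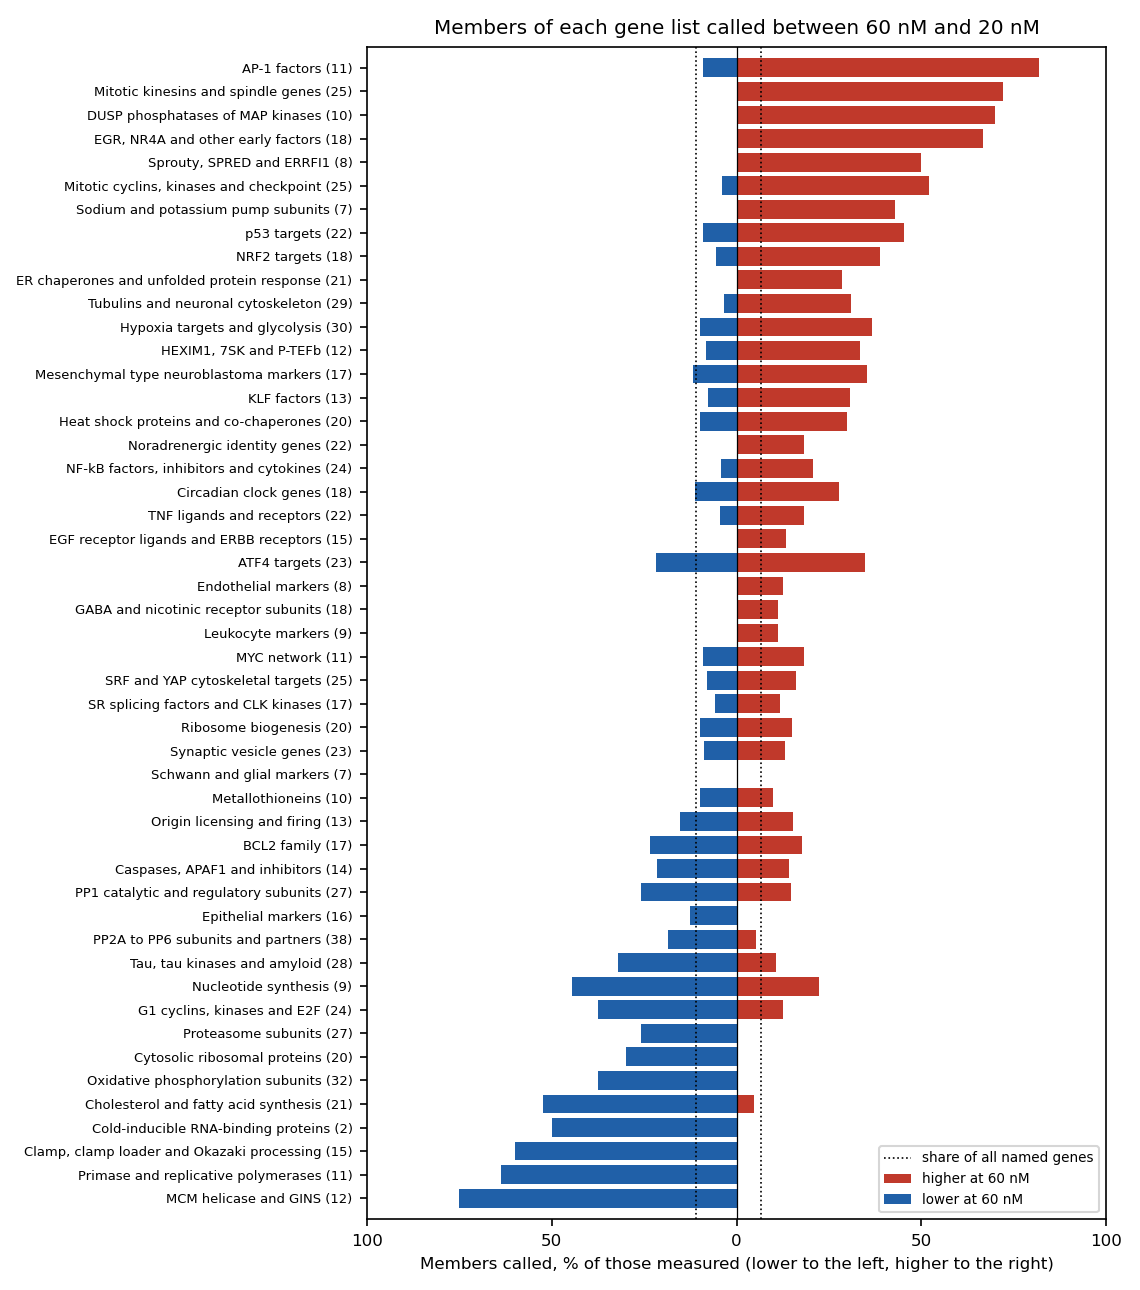
The share of measured members called lower (blue, to the left) and higher (red, to the right) at 60 nM is drawn for each of 49 gene lists, with the number measured in parentheses and dotted lines at the shares of all named genes, 11% lower and 6.71% higher. AP-1 factors head the plot with 9 of 11 higher, and the MCM and GINS genes end it with 9 of 12 lower.

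MicroRNA genes were rarely called. Of 1032 measured, 19 were higher (1.84%) and 7 lower (0.678%), against 6.71% and 11% of all named genes. Of the 187 above background, 10 were higher (5.35%) and 7 lower (3.74%), against 13% and 22.3% of all genes above background. Array probes for these genes measure the transcript around the microRNA, not the mature form. Those named by smallest p, with the 2 among the largest falls, are shown by their mature sequences from RefSeq, with the seed, bases 2 to 8, in capitals.
hsa-miR-3671: aUCAAAUAaggacuagucugca
hsa-miR-3198: gUGGAGUCcuggggaauggaga
hsa-miR-554: gCUAGUCCugacucagccagu
hsa-miR-572: gUCCGCUCggcgguggccca
hsa-miR-25-3p: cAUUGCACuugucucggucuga
hsa-miR-25-5p: aGGCGGAGacuugggcaauug
MIR25 lies within MCM7, a helicase subunit gene. It was below background at 60 nM and at least 1.3-fold lower (adjusted p = 0.00491), and MCM7 fell by 0.72 (SE 0.06). MIR554 lies within TUFT1 and was below background at 20 nM and at least 2.78-fold higher (adjusted p = 0.00116), and TUFT1 rose by 2.54, SE 0.11. MIR572 was higher by 0.37, SE 0.04. MIR3671 had levels of 9.72, 8.87 and 9.64 on the 20 nM arrays and 7.79, 7.79 and 7.64 on the 60 nM arrays, a fall with a wide SE (log2 difference -1.67, SE 0.25, adjusted p = 0.0114) that lost its call without replicate 3 at 60 nM, while JAK1, the gene around it, rose by 0.66, SE 0.067. MIR3198-1, within BID, had levels of 7.14, 8.31 and 7.28 on the 20 nM arrays and 6.01, 5.86 and 5.92 on the 60 nM arrays (log2 difference -1.65, SE 0.33, adjusted p = 0.0283), a call lost without replicate 3 at 20 nM or any 1 of the 60 nM arrays, and BID fell by 0.52 (SE 0.10). The host genes TUFT1, JAK1, BID and MCM7 are named for their microRNA genes, after their values were seen. Of 175 long noncoding RNA genes above background, 12 were higher (6.86%) and 27 lower (15.4%), against the same 13% and 22.3%.

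Called genes differed by chromosome. Among genes above background, 27.7% were lower and 8.90% higher on the 5 gene-dense chromosomes 11, 16, 17, 19 and 22 (2359 genes, median -0.09), and 15.5% were lower and 16.8% higher on the 5 gene-poor chromosomes 4, 5, 8, 13 and 18 (1455 genes, median -0.00). The other autosomes lay between, with 23.4% and 14.1% of 5295 genes. Chromosome 19, the densest, had 20.1% lower and 6.26% higher. A chromosome score, the median level of genes above background on the gene-dense minus that on the gene-poor chromosomes, was 0.25, 0.19 and 0.19 on the 20 nM arrays and -0.01, -0.00 and 0.04 on the 60 nM arrays, without overlap (exact two-sided permutation p = 0.1, the smallest possible). With this score as a covariate limma called no gene, 1401 genes had an unadjusted p under 0.05, and 3532 of the 3979 called genes kept their direction. The median SE was then 0.237 in place of 0.0576. With the covariate the median difference was 0.11 for spindle genes (0.80 without it) and 0.15 for mitotic kinase and checkpoint genes (0.39). It was -0.57 for MCM and GINS genes (-0.69), -0.71 for primase and polymerases (-0.50) and -0.58 for the clamp list (-0.40). For origin licensing it was -0.58 (-0.16) and for nucleotide synthesis -0.31 (-0.16). Since the score separates the doses, dose and score cannot be told apart on these arrays, and this touches every result above. Within chromosome classes, DNA replication genes were lower in 12 of 17 on gene-dense, 16 of 33 on middle and 2 of 7 on gene-poor chromosomes, and higher in 0, 3 and 1. Mitosis genes were higher in 4 of 10, 19 of 30 and 7 of 9 in the same order, and lower in 1, 0 and 0. Immediate early genes were higher in 7 of 13, 13 of 31 and 7 of 9.

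**Figure D5:**
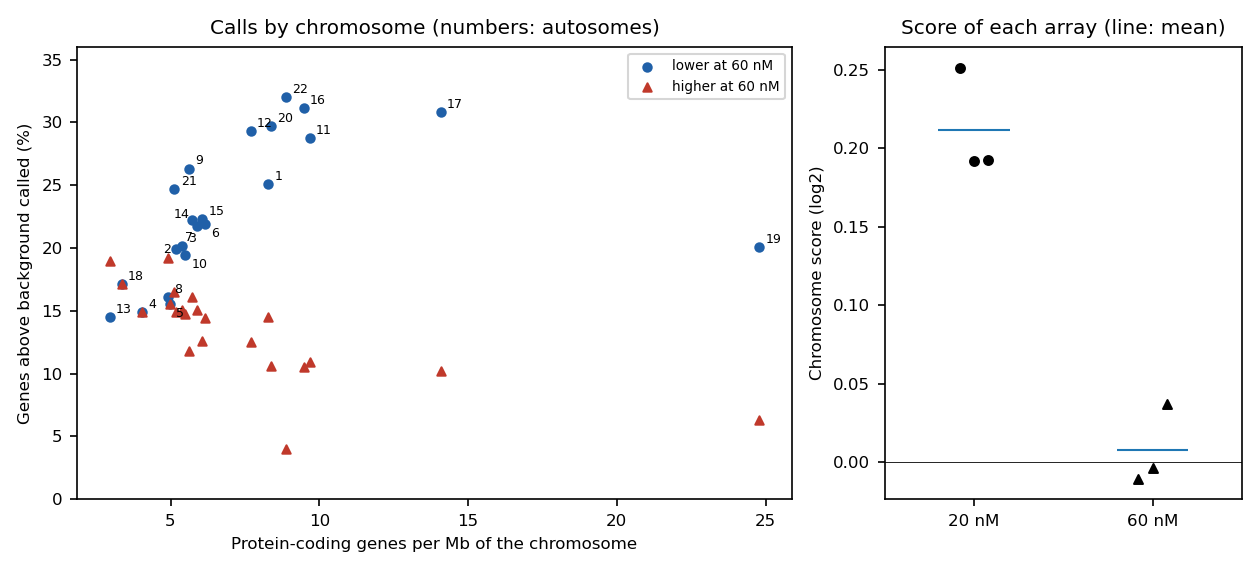
Left, the share of genes above background called lower (blue circles, numbered by chromosome) and higher (red triangles) at 60 nM in percent is plotted for each autosome against its protein-coding genes per Mb. Right, the chromosome score (log2) of each array is plotted by dose with the mean as a line, at 0.19 to 0.25 on the 20 nM arrays and -0.01 to 0.04 on the 60 nM arrays.

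Called genes also differed in length. Among genes above background with a length in RefSeq (94.3%), the median gene length was 42.5 kb for genes that were higher, 29.5 kb for genes that were lower and 29.1 kb for genes not called. For genes that changed at least 2-fold the medians were 33.3 kb and 28.7 kb. The median level at 20 nM was 7.80 for higher, 8.24 for lower and 7.82 for uncalled genes.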

How the data were processed

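The authors deposited 1 table with an intensity per probe set and array. The submitters' processing notes name RMA, with no version, and neither an annotation nor a build for its output was stated. The deposited intensities are linear (median 21.9, highest 999953), so log2 was taken without a constant. RMA usually gives log2 values, and whether its output was only turned back to a linear scale or otherwise transformed is not stated, so every fold and log2 difference assumes a linear scale. Such processing makes arrays alike and would hide a shift common to all genes. Gene symbols came from the platform's annotation table: 23784 had 1 symbol, and 1540 with several, 42204 with none listed and 2995 control or exon-level sets were left out. Where a gene had more than 1 probe set (479 genes), the brightest over the 6 arrays stood for it. Of 22468 genes 20297 were found in RefSeq GRCh38.p14, used for names, chromosomes, lengths and sequences. For 7610 genes 3 or more of the 6 arrays hold 1 value to 4 decimals, which can make their SE too small.

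The 6 arrays were fitted with limma 3.58.1 (lmFit, eBayes) in R 4.3.3, with dose as the term, and p-values were adjusted by Benjamini-Hochberg over all genes. The replicate numbers were not used as pairs. Array measures were compared by exact permutation tests. The number of arrays limits the precision. On simulated arrays of these 22468 genes, the share of altered genes called was 24% at 1.25-fold, 50% at 1.5-fold, 74% at 2-fold and 94% at 4-fold (50 genes each), beside 8 unaltered genes. The altered genes were drawn from those above the median level. Far fewer genes were altered than were called in the data, which makes the adjusted p stricter. These shares are therefore not the power of the comparison made here.

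The arrays compared, the 49 gene lists, the tests and the alternatives were chosen with earlier results of these data known. Genes were named by a rule: the 15 largest rises and falls among called genes without overlap whose higher mean was above background, up to 4 members per list by smallest p, the catalytic phosphatase subunits, FOS, EGR1, JUN, CDKN1A, MAPT, ACTB and GAPDH, and called microRNA genes, 2 in each direction. Other genes named are stated as such or are markers of cell identity. Alternatives were the fit of all 9 arrays, genes above background alone, quantile normalization, equal medians, equal hybridisation controls, 16 added before log2, trended variance, the mean over probe sets, genes with repeated values left out, a replicate block, the chromosome score as a covariate and each array left out.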

Additional observations from a re-analysis of the deposited data

How the results depend on the processing

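Between 3921 and 5162 genes were called, in place of 3979, when all 9 arrays were fitted (4007), with genes above background alone (4318), quantile normalization (5162), 16 added (3960), trended variance (3921), the mean over probe sets (3991) or repeated values left out (4397), and 3159 with equal medians. With hybridisation controls set equal the counts were 2639 called and 506 higher. Leaving out 1 array gave 2488 to 3967 called, 877 to 1761 higher and 1547 to 2206 lower. Same-numbered arrays of the doses did not deviate together (r of -0.21, -0.24 and 0.05 across genes above background). Between differently numbered arrays r ran from -0.34 to 0.37. With 3 arrays per dose these values cannot show whether the numbers pair the samples. With the replicate block 1547 genes were called, 604 higher and 943 lower, and 58 of 195 called genes named by the rule lost the call. Lists lost calls unequally under the block. Of the MCM and GINS genes 9 were still lower, and 4 primase and polymerase genes in place of 7. Spindle genes higher went from 18 to 5, mitotic kinase and checkpoint genes from 13 to 6, AP-1 genes from 9 to 4 and DUSP genes from 7 to 3. Oxidative phosphorylation genes lower went from 12 to 5. With the chromosome score as a covariate 0 genes were called, 0 higher and 0 lower (limma, smallest adjusted p = 0.387, 1401 at an unadjusted p under 0.05). The difference turned under that covariate for SPRED1 (-0.379), IGBP1 (0.0198), DBF4 (-0.150), ORC4 (-0.186), RPS16 (0.0487), HSPB1 (0.0404), APAF1 (-0.0624), ISL1 (-0.320) and KRT18 (0.110). With equal hybridisation controls it turned for NRG1 (-0.0471), NPM1 (-0.0912), RRP9 (-0.0187), TNFRSF21 (-0.0356), NFKB2 (-0.0407), MARK1 (-0.0851) and PPP2CB (-0.121), since every difference was lowered by 0.28. With 1 array left out the difference in array median ran from -0.00362, without replicate 2 at 20 nM, to 0.0566, and that of the poly-A controls from -0.213 to 0.0498, turned without replicate 2 at 20 nM (0.0498) or at 60 nM (0.0484). The other causes were not tested. Signal over background limits the 12480 genes that were at background at both doses, of which 446 were called.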
